A study of Mus musculus with 2 samples.

Results

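Serine, folate and nucleotide synthesis genes were followed in RNA sequencing libraries of mouse embryonic heart. The set holds 29 enzymes named by symbol, from the phosphorylated serine pathway through folate metabolism to purine, pyrimidine and deoxynucleotide synthesis. All 29 were found among the 34236 gene symbols of the tables, each with 1 row. The heart RNA came from a single group of 2 libraries, replicate 1 and replicate 2. The embryos were at day 12.5, of mixed C57BL/6 x 129S6 background, and the labels give no treatment or mutant allele. The labels do not tell whether the replicates were separate embryos, pools or litters, so the spread between them may be technical. No condition was compared with another, and a two-sided exact sign-flip test of 2 libraries cannot go below p = 0.5. Values are FPKM, fragments counted per kilobase of a gene's transcript and relative to the size of the library, and mean ± SD is over both libraries (n = 2).

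Dividing cells must copy their DNA and build RNA, and they draw the carbon and nitrogen for this largely from serine, glycine, glutamine, aspartate and folate-bound carbon units. Serine hydroxymethyltransferases pass a carbon from serine to tetrahydrofolate, and folate enzymes in mitochondria and cytosol turn it into the forms that feed the purine ring and thymidylate. Purines are built step by step on phosphoribosyl pyrophosphate (PRPP) up to IMP, pyrimidines are built first as a ring and then joined to PRPP, and ribonucleotide reductase converts the ribonucleotides into deoxynucleotides. The heart at this stage is still growing by division of its cells.

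The deposited values allow an estimate of how much each level rests on. Among single-transcript genes of 2 kb or more with values under 0.1 FPKM, the lowest cluster of values put 1 fragment per kilobase at 0.0154 FPKM in replicate 1 and 0.0204 FPKM in replicate 2. This corresponds to about 65.0 M and 49.0 M fragments (M, mega), so replicate 1 was about 1.33 times as deep. The estimate uses transcript lengths from GENCODE M21 and not the annotation of the authors. Any scaling of the libraries by the authors' tools was not accounted for. On this scale the least covered value was that of Mthfd1l in replicate 2, at about 366 fragments per kilobase, and the best covered was that of Paics in replicate 1, at about 8888. Markers of cardiomyocytes reached 1 FPKM in both libraries for 8 of 8 genes, and their summed level was 8499 FPKM in replicate 1 and 8282 FPKM in replicate 2. Erythroid markers did so for 8 of 8 genes, with sums of 24017 and 23184 FPKM in the same order. Endothelial (5 of 5), fibroblast and cushion (4 of 4) and epicardial (4 of 4) markers also reached 1 FPKM in both libraries. None of these lists, nor the hepatocyte list, had a gene at 0 in both libraries. Hepatocyte markers reached 1 FPKM in both libraries for 0 of 7 genes, with sums of 2.21 FPKM in replicate 1 and 3.87 FPKM in replicate 2. In whole-heart RNA fewer cells of a type and less RNA per cell cannot be told apart, and the part of each cell type in the levels below was not tested.

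All 29 synthesis genes reached 1 FPKM in both libraries, against 36.2% of all symbols and 52.4% of protein-coding symbols. Their mean levels ran from 7.76 FPKM for Pfas to 134 FPKM for Paics, a span of 17.3-fold. The median member stood at 20.9 FPKM, against 9.91 FPKM for all symbols whose mean was at least 1 FPKM and 10.7 FPKM for the protein-coding ones among them. On the log2(FPKM + 1) scale the median level was 4.45 for the members and 3.45 for symbols at that mean. It was 1.42 for all protein-coding symbols and 0.16 for all symbols. A mean of 10 FPKM was reached by 26 members (89.7%), against 49.7% of symbols with a mean of 1 FPKM or more, and 20 FPKM by 15 members (51.7%), against 27.5%. At 50 FPKM the shares were close, with 3 members (10.3%) against 9.37%. Together the members took 0.210% of all FPKM in replicate 1, beside 0.206% for replicate 2, and Paics alone made up 16.7% of the members' sum in each library.

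**Figure D1:**
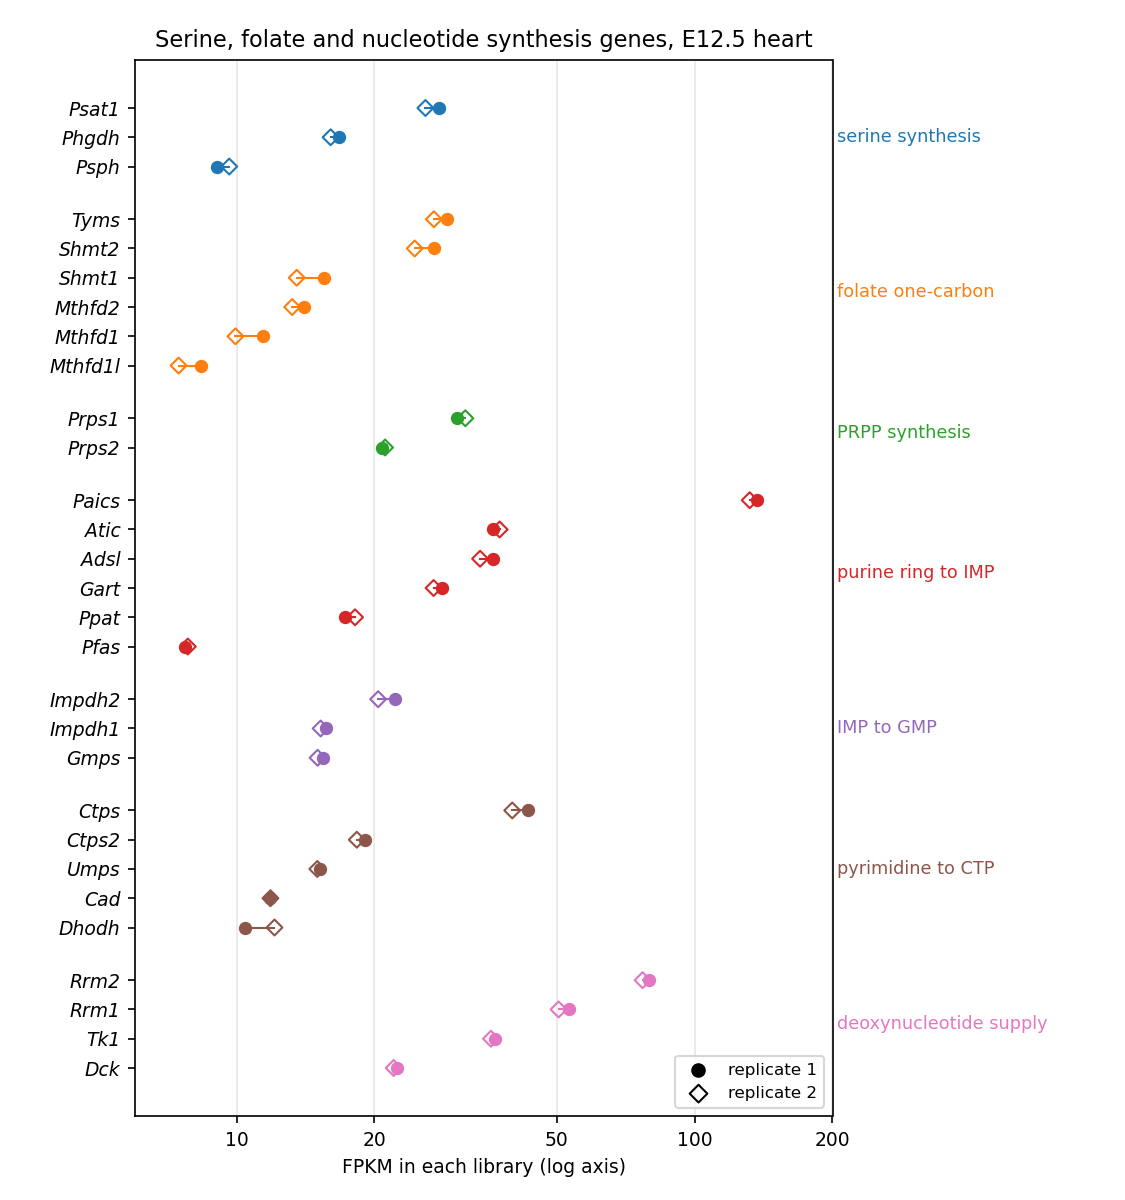
FPKM of each synthesis gene on a log axis in replicate 1 (filled circles) and replicate 2 (open diamonds), grouped by pathway and ordered within each group by mean. The symbols of a gene lie close together against the span between genes, with Paics near 134 FPKM far to the right and Pfas and Mthfd1l near 8 FPKM at the left.

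The order of the members was largely shared by the libraries. Of 28 neighbours in the order of mean level, 14 had library values that did not overlap. The 5 highest genes, Paics, Rrm2, Rrm1, Ctps and Atic, were each separated from the next below except Atic, whose values overlapped those of Tk1, and those of Tk1 overlapped those of Adsl. At the low end Mthfd1l and Pfas overlapped.

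In the serine pathway, which branches from glycolysis, Psat1 stood above both other enzymes. Psat1, the aminotransferase of the pathway, had 27.6 FPKM in replicate 1 and 25.8 FPKM in replicate 2. Phgdh, the dehydrogenase that takes the first step from a glycolytic intermediate, had 16.7 and 16.0 FPKM. Psph, the phosphatase that releases serine, had 9.06 and 9.64 FPKM. The values of the enzymes did not overlap, and the middle enzyme of the path was the highest and the last the lowest. The log2 ratio of Psat1 over Phgdh was 0.67 ± 0.03 and that of Psat1 over Psph 1.42 ± 0.12. For such ratios between genes, taken on FPKM + 1, the limit used was 0.32 log2 units, the size that 95% of single-gene differences between the libraries stay under, and both ratios exceeded it. The limit covers only the spread between libraries, and errors that both share, such as reads lost to copies, are not in it.

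The folate enzymes had the lowest median among the 7 groups, at 14.1 FPKM, and held both mitochondrial and cytosolic forms. Tyms, thymidylate synthase, which makes the DNA-specific pyrimidine nucleotide, was the highest with 28.8 FPKM in replicate 1 and 27.0 FPKM in replicate 2. Shmt2, the mitochondrial serine hydroxymethyltransferase, had 26.9 and 24.5 FPKM, and the cytosolic Shmt1 had 15.5 and 13.5 FPKM. In the mm9 tables Shmt2 is ENSMUSG00000025403, chr10:126954195-126959491 on the minus strand, and Shmt1 is ENSMUSG00000020534, chr11:60601606-60625220 on the minus strand. Shmt2 stood above Shmt1 in both libraries without overlap (log2 ratio 0.78 ± 0.04, 1.72-fold on FPKM + 1). Mthfd2, a mitochondrial dehydrogenase and cyclohydrolase known for its high level in embryonic and tumour cells, had 14.1 and 13.2 FPKM. The next mitochondrial enzyme, Mthfd1l, which releases formate, had 8.38 and 7.47 FPKM, and the trifunctional cytosolic Mthfd1 had 11.4 and 9.94 FPKM. Mthfd2 exceeded Mthfd1l (0.72 ± 0.05) and its paralogue Mthfd2l, which had 5.81 and 5.15 FPKM (1.18 ± 0.05). Mthfd1 exceeded Mthfd1l by less, at 0.39 ± 0.03, and its values did not overlap those of Mthfd1l.

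The bases just before the annotated starts of Shmt2 and Shmt1 are shown because these genes encode the same reaction in different compartments and differed in level. Each stretch holds the 150 bases before the start in the RefSeq table (GRCm38.p6), 5′ to 3′ on the gene's own strand, at chr10:127522445-127522594 on the minus strand for Shmt2 and chr11:60811266-60811415 on the minus strand for Shmt1, and lies in no GENCODE M21 exon. Capitals mark matches to CCAAT, the box known to bind the factor NF-Y, or GGGCGG, the GC box of Sp-type factors, on either strand.
Shmt2: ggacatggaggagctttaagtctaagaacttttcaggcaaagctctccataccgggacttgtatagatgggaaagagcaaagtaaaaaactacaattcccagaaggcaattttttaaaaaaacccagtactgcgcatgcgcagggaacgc
Shmt1: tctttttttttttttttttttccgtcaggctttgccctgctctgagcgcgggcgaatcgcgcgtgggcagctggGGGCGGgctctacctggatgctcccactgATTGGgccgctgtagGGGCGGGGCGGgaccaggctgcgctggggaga
The stretch of Shmt1, the lower gene, held a CCAAT box and 3 GC boxes, of which a pair overlap, and that of Shmt2 held neither. Their GC content was 43.3% for Shmt2 and 62.7% for Shmt1.

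PRPP, on which purines are built and to which the pyrimidine ring is joined, is made by Prps1 and Prps2. Both genes are on the X chromosome (ENSMUSG00000031432, chrX:136991152-137010679 on the plus strand for Prps1 and ENSMUSG00000025742, chrX:163784254-163820681 on the minus strand for Prps2, mm9). Prps1 had 30.3 FPKM in replicate 1 and 31.6 FPKM in replicate 2, and Prps2 had 20.8 and 21.1 FPKM. Both were slightly higher in replicate 2, unlike most members. The values did not overlap, and Prps1 was 1.46-fold above Prps2 on FPKM + 1 (log2 ratio 0.54 ± 0.02). The corresponding bases before their starts, at chrX:140456453-140456602 on the plus strand for Prps1 and chrX:167382750-167382899 on the minus strand for Prps2, are shown with the same marking, since this pair differed in level too.
Prps1: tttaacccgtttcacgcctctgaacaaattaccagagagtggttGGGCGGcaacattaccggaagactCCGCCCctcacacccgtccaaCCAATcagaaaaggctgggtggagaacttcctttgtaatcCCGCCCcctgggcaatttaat
Prps2: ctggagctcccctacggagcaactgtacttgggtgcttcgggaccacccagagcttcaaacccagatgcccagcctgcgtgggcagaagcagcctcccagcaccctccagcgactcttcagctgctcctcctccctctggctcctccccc
Here the stretch of the higher gene, Prps1, held a CCAAT box and 3 GC boxes, and that of Prps2 held neither.

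The purine ring group had a median of 31.3 FPKM and held both the highest and the lowest gene of the whole set by mean level. The lowest, Pfas, overlapped the folate enzyme Mthfd1l, which was below it in replicate 2 (7.47 against 7.83 FPKM). Paics, which carries out a carboxylation and the following ligation in the middle of the path, had 137 FPKM in replicate 1 and 132 FPKM in replicate 2 and lay above 97.4% of symbols with a mean of 1 FPKM or more. Pfas, the glutamine-using amidotransferase that acts a few steps earlier, had 7.70 and 7.83 FPKM and lay above 42.1% of them. Between them came Atic, the bifunctional enzyme of the last steps to IMP, with 36.3 and 37.5 FPKM. Adsl, a lyase that also acts in AMP synthesis, had 36.2 and 34.0 FPKM. Gart, a trifunctional enzyme that takes folate-bound formyl groups, had 28.0 and 26.9 FPKM. Ppat, the amidotransferase of the first and committed step, had 17.3 and 18.1 FPKM. Paics stood alone at the top, and neighbours in this group did not overlap, though the lowest value of Atic and the highest of Adsl nearly met.

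Paics and Ppat lie head to head on chromosome 5 (mm9 coordinates of the files, ENSMUSG00000029247, chr5:77380332-77396534 on the plus strand for Paics and ENSMUSG00000029246, chr5:77342274-77380603 on the minus strand for Ppat). Their annotated 5′ ends overlap by 272 bases. Paics exceeded Ppat 7.24-fold on FPKM + 1, with a log2 ratio of 2.91 in replicate 1 and 2.80 in replicate 2. The library kit does not mark strand, so reads inside the overlap cannot be told apart between these genes.

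Opposite-strand starts within 1 kb were also annotated for Gart, Psph, Tk1 and Umps. In all 6 of 29 members had such a neighbour (20.7%), close to the 22.2% of protein-coding rows at 1 FPKM or more in both libraries. Gart starts 554 bases from Son, an RNA-binding splicing protein, and stood at 27.5 ± 0.777 FPKM, against 56.8 ± 2.19 FPKM for Son. Psph starts 186 bases from Cct6a, a subunit of a cytosolic chaperonin, and stood at 9.35 ± 0.409 FPKM, against 96.3 ± 0.734 FPKM for Cct6a. The starts of Tk1 and Afmid overlap by 169 bases, and Tk1 stood at 36.3 ± 0.494 FPKM, against 5.50 ± 0.386 FPKM for Afmid. The antisense gene that overlaps Umps by 800 bases, Gm15829, stood at 0.0619 ± 0.0514 FPKM. Tk1 and Umps were thus higher than their neighbour, and Gart and Psph were lower.

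From IMP to GMP the 3 enzymes lay close together. Impdh2, the IMP dehydrogenase known to be induced in dividing cells, had 22.2 FPKM in replicate 1 and 20.4 FPKM in replicate 2. Its paralogue Impdh1 had 15.7 and 15.3 FPKM, and Gmps, the GMP synthetase that follows, had 15.5 and 15.0 FPKM. The values of Impdh2 lay above those of the other enzymes, and those of Impdh1 and Gmps overlapped. The log2 ratio of Impdh2 over Impdh1 was 0.43 ± 0.06 (1.35-fold on FPKM + 1) and that of Gmps over Impdh2 was -0.45 ± 0.06. Impdh2 has a near-identical pseudogene, Impdh2-ps, with 99.7% identity over 1545 bases, which was listed at 1.79 FPKM in replicate 1 and 2.82 FPKM in replicate 2. How reads that match both were counted is not given in the tables, so the level of Impdh2 is uncertain by an unknown amount.

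In the pyrimidine group the enzymes that make UMP were lower than the CTP synthases that act after it. Cad, the trifunctional enzyme of the first steps, had 11.8 FPKM in replicate 1 and 11.9 FPKM in replicate 2. Dhodh, the inner mitochondrial membrane enzyme that passes electrons to the respiratory chain, had 10.4 and 12.1 FPKM. Umps, the bifunctional enzyme that yields UMP, had 15.2 and 15.0 FPKM. Cad and Dhodh overlapped, and Umps lay above both in each library. The log2 ratio of Cad over Umps, -0.33 ± 0.01, was just past the limit of 0.32 on average and just within it in replicate 2. That of Umps over Dhodh, 0.40 ± 0.15, was 0.50 in replicate 1 and 0.29 in replicate 2, and passed the limit on average but not in replicate 2. Ctps, a CTP synthase that amidates UTP, had 43.2 and 40.0 FPKM, and its X-linked paralogue Ctps2 had 19.1 and 18.3 FPKM. The mm9 tables place Ctps (ENSMUSG00000028633) at chr4:120212473-120242881 on the minus strand and Ctps2 (ENSMUSG00000031360) at chrX:159339170-159470440 on the plus strand. Ctps exceeded Ctps2 without overlap (log2 ratio 1.11 ± 0.04, 2.16-fold on FPKM + 1). Their stretches before the start, at chr4:120570277-120570426 on the minus strand for Ctps and chrX:162902021-162902170 on the plus strand for Ctps2, are shown because these paralogues differed in level.
Ctps: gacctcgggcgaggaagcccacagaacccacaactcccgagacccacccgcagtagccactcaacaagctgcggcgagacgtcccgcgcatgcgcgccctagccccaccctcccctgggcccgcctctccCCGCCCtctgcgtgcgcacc
Ctps2: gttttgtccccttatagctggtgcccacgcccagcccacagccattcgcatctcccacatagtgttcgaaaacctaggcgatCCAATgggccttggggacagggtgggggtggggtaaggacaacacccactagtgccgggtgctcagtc
That of Ctps held a GC box and that of Ctps2 a CCAAT box.

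Deoxynucleotide supply was the highest group, with a median of 44.0 FPKM. Rrm2, the small subunit of ribonucleotide reductase that is made in S phase and broken down in mitosis, had 79.6 FPKM in replicate 1 and 77.0 FPKM in replicate 2. Its row is ENSMUSG00000020649, chr12:25393106-25399011 on the plus strand (mm9). The large subunit Rrm1 had 53.2 and 50.5 FPKM. The ratio of Rrm1 over Rrm2 was -0.59 ± 0.02 on the log2 scale, so the transcript of the small subunit was the more abundant. Rrm2b, the alternative small subunit that serves cells outside S phase, was at 7.46 ± 0.106 FPKM, and the log2 ratio of Rrm2 over Rrm2b on FPKM + 1 was 3.23 ± 0.02. Tk1, the S-phase thymidine kinase of the cytosol, had 36.6 and 35.9 FPKM, against 4.58 ± 0.332 FPKM for its mitochondrial counterpart Tk2 (log2 ratio of FPKM + 1, 2.74 ± 0.07). Dck, a salvage kinase for deoxycytidine and purine deoxynucleosides, had 22.4 and 22.0 FPKM, against 11.1 ± 0.0153 FPKM for the mitochondrial Dguok (0.94 ± 0.02). In each of the 3 comparisons the cytosolic or S-phase form was higher in both libraries, without overlap.

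**Figure D2:**
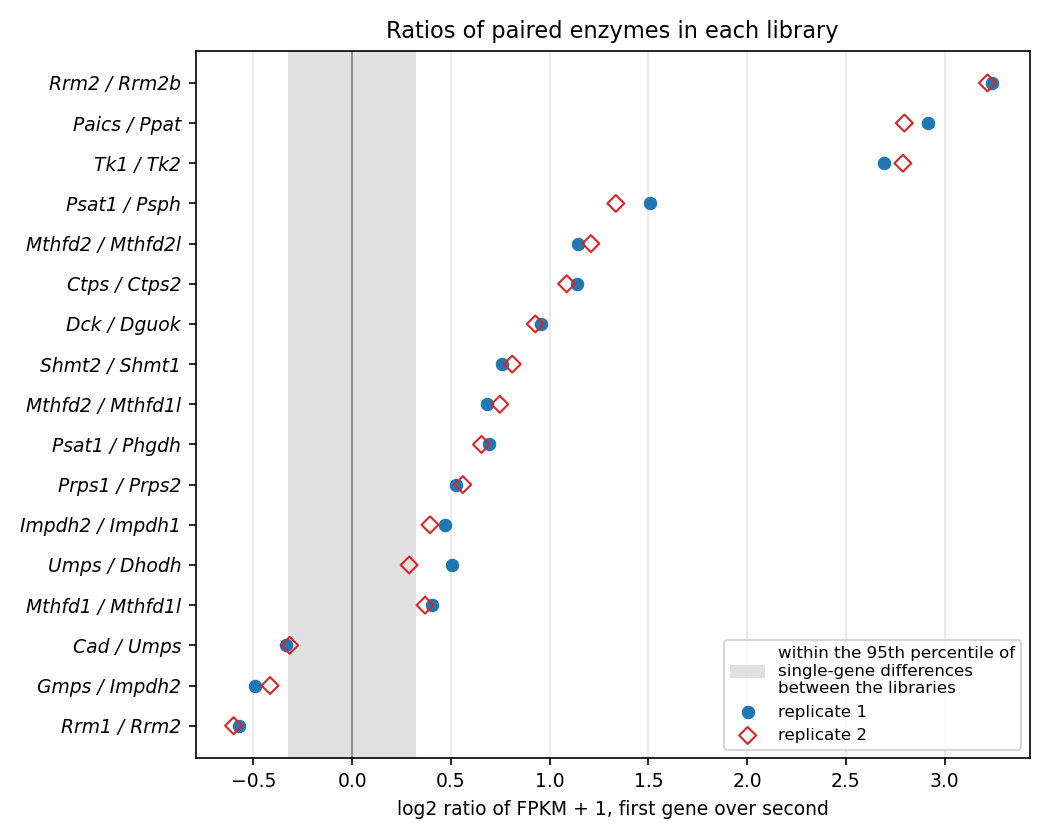
Log2 ratio of FPKM + 1 for 17 pairs of paralogous, successive or neighbouring enzymes (first gene over second) in replicate 1 (filled circles) and replicate 2 (open diamonds), with the grey band at the limit of 0.32 on each side of 0. All pairs keep their sign in both libraries, and the band touches the values of Umps over Dhodh and Cad over Umps in replicate 2.

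Across the 17 pairs the sign was the same in both libraries and the mean ratio passed 0.32 in size for every pair. Because the limit measures the spread of single genes between the libraries, genes that differ in level pass it readily. The share of all gene pairs that would pass was not computed, and the pairs were chosen with earlier results of these data known. The count is therefore no evidence about these pairs as a set. The first gene was higher in 14 pairs and lower in 3, Rrm1 over Rrm2, Gmps over Impdh2 and Cad over Umps. With a pseudocount of 0.1 FPKM in place of 1, Umps over Dhodh and Cad over Umps no longer passed the limit that this scale gives, 0.42.

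The libraries differed little for these genes. None of the 29 differed 2-fold or more, against 0.736% of symbols at a mean of 1 FPKM or above. The median size of the difference between the libraries was 0.06 log2 units for the members and 0.06 for the 6992 symbols within the same range of means. The largest difference was that of Dhodh, higher in replicate 2 by 0.20 log2 units, and the most negative was that of Shmt1, at -0.18. In replicate 2, 21 of 29 members were the lower, against 66.6% of symbols with a mean of 1 FPKM or more and 71.3% of those within the members' range, a share close to the background. All 6 folate enzymes were lower in replicate 2, with log2 differences between -0.08 (Mthfd2) and -0.18 (Shmt1), and both PRPP synthetases were higher there. Some other groups and lists were mostly lower in replicate 2 as well. Among them were deoxynucleotide supply (4 of 4 genes), IMP to GMP (3 of 3) and the proliferation list (11 of 12). Endothelial markers were lower in 5 of 5 (median -0.10) and fibroblast and cushion markers in 4 of 4 (median -0.17). Others did not share this. Of the 14 further folate and one-carbon enzymes that reached 1 FPKM in both libraries, 7 were lower in replicate 2. The counts were 5 of 9 for further deoxynucleotide enzymes and 3 of 6 for the purine ring group. Epicardial markers were lower in 1 of 4 and erythroid markers in 3 of 8. The part of any of these cell types in the folate values was not tested. Scaling replicate 2 up by 1.03, the median ratio of the libraries, left 16 of 29 members and 6 of 6 folate enzymes lower in replicate 2, against 48.9% of symbols. Before this scaling all 29 differences were inside 0.32, the limit from symbols with a mean of 1 FPKM or more. From symbols with a mean of 5 FPKM or more, which all members reach, the limit was 0.21. Dhodh at 0.20 and Shmt1 at -0.18 were close to it.

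**Figure D3:**
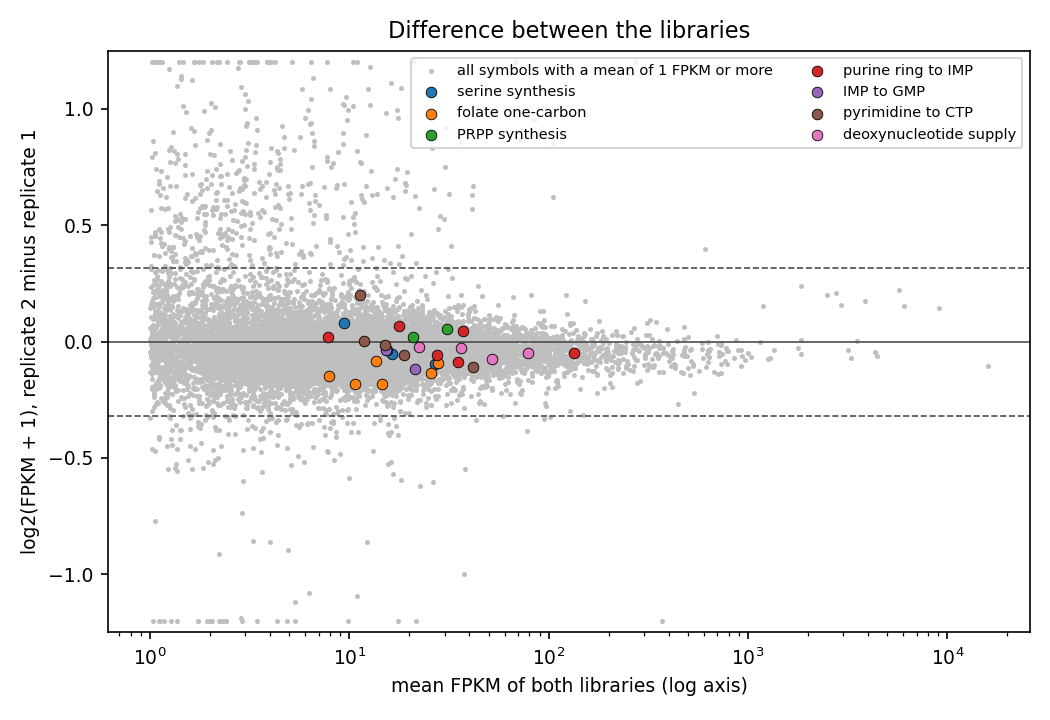
Difference of log2(FPKM + 1), replicate 2 minus replicate 1, against mean FPKM on a log axis for all symbols with a mean of 1 FPKM or more (grey; differences beyond 1.2 are drawn at 1.2) and the synthesis genes (coloured by group). The dashed lines stand at 0.32 on each side of 0, and all 29 synthesis genes lie between them, with the folate enzymes below 0.

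Other genes of the same pathways covered a far wider range of levels than the 29 synthesis genes. Of 17 further folate and one-carbon enzymes, 14 were detected (1 FPKM or more in both libraries), and the median over all 17 was 6.26 FPKM, below every folate member. The highest were Dld, a subunit shared with the glycine cleavage system and the pyruvate dehydrogenase complex, at 88.1 ± 0.889 FPKM, and Gcsh, the carrier protein of glycine cleavage, at 20.6 ± 0.702 FPKM. The lowest were Ftcd at 0.888 ± 0.256, Aldh1l1 at 0.332 ± 0.0506 and Dmgdh at 0.141 ± 0.0532 FPKM, enzymes best known from liver. Of 7 folate and serine carriers 6 were detected, with the reduced folate carrier Slc19a1 at 6.82 ± 0.287 FPKM, the neutral amino acid carrier Slc1a5 at 18.2 ± 0.130 FPKM and the folate receptor Folr2 at 0.405 ± 0.235 FPKM.

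Purine salvage genes held transcripts above most purine synthesis members as well as transcripts near 0. Of 19 purine salvage and interconversion genes 16 were detected, with a median of 21.8 FPKM, beside which the purine ring group had 31.3 FPKM and the IMP to GMP group 15.5 FPKM. Hprt and Aprt, which return bases to nucleotides with PRPP, stood at 68.0 ± 2.30 and 66.8 ± 0.124 FPKM, above every purine synthesis member except Paics. The adenylate kinase Ak1 stood at 67.8 ± 0.157 FPKM and the nucleoside diphosphate kinase Nme2 at 224 ± 10.4 FPKM. The lowest of the list were the muscle AMP deaminase Ampd1 at 0.157 ± 0.00901 FPKM, the guanine deaminase Gda at 0.0418 ± 0.0113 FPKM and Xdh, which makes uric acid, at 0.0272 ± 0.0140 FPKM. Other breakdown enzymes of the list were detected, among them Pnp at 5.90 ± 0.0400 FPKM and Ada at 1.57 ± 0.0897 FPKM, named here after their values were seen.

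Of 11 pyrimidine salvage and breakdown genes 8 were detected, and the median was 3.63 FPKM. The uridine-cytidine kinases Uck2 and Uck1 stood at 23.8 ± 0.106 and 13.8 ± 0.331 FPKM, on either side of Umps at 15.1 ± 0.129 FPKM. The lowest of the list were the breakdown enzymes Dpyd and Upb1, at 0.488 ± 0.0359 and 0.0414 ± 0.0207 FPKM, and Dpys, listed at 0.0444 FPKM in replicate 1 and 0 in replicate 2. Other enzymes of the list that can act in breakdown were detected, Upp1 at 8.27 ± 0.0406, Cda at 3.63 ± 0.371 and Upp2 at 1.62 ± 0.106 FPKM. They are named here after their values were seen. All 9 further deoxynucleotide enzymes were detected, with Dtymk, the thymidylate kinase, at 64.9 ± 1.17 FPKM, Dctpp1 at 61.0 ± 2.16 FPKM and Dut, which removes dUTP and supplies the substrate of Tyms, at 48.8 ± 0.727 FPKM. These last lay between Rrm2 and Ctps in level.

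Of the regulators listed for these pathways all 6 were detected, with Atf4, known to drive the serine and mitochondrial folate genes under amino acid shortage, at 58.9 ± 1.39 FPKM and Mycn, a driver of growth in the embryonic heart, at 18.1 ± 0.322 FPKM. The 12 proliferation genes were all detected with a median of 49.3 FPKM, led by Cdk1 at 99.3 ± 2.44 FPKM and Pcna at 93.1 ± 3.08 FPKM. The deoxynucleotide group, at a median of 44.0 FPKM, was the group of members nearest to them in level. A shared level does not show that the same cells held these transcripts.

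**Figure D4:**
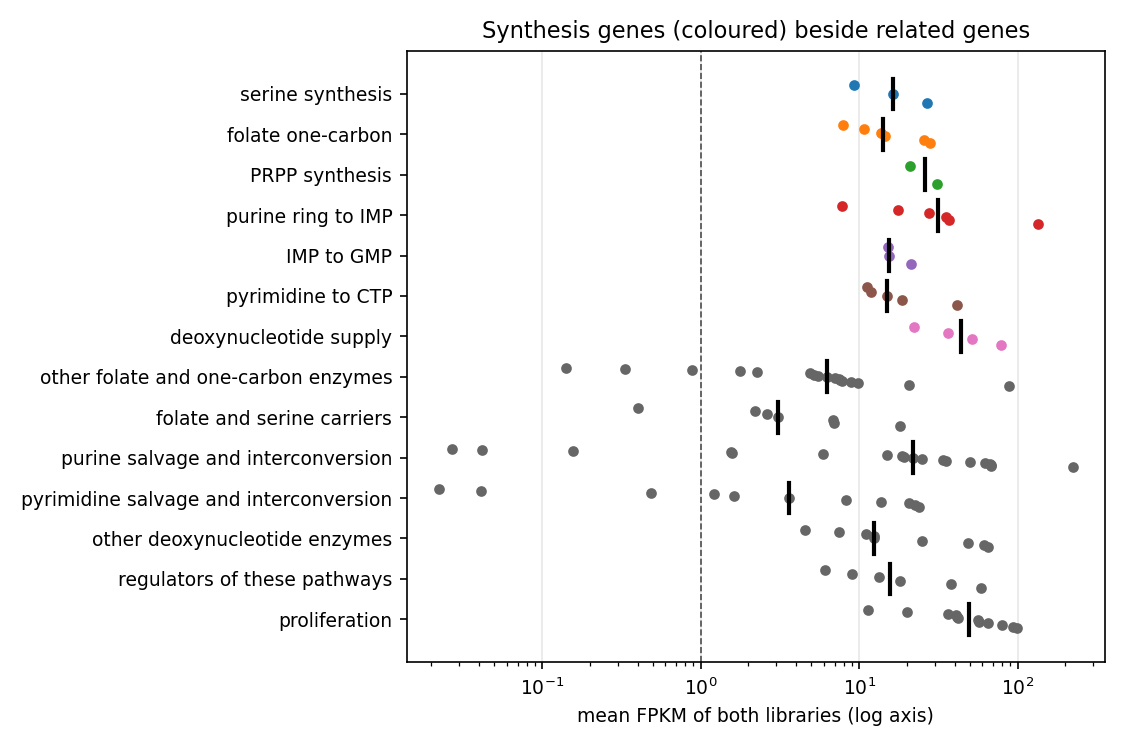
Mean FPKM of each gene on a log axis for the 7 groups of synthesis genes (coloured points) and 7 lists of related genes (grey points), with a black bar at each group's median and a dashed line at 1 FPKM. The synthesis genes lie between 7.76 and 134 FPKM, and the lists of carriers, salvage and further folate enzymes reach below 1 FPKM.

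By position, 6 of the 29 members lie on chromosome 5 (20.7%, against 6.36% of symbols at 1 FPKM or more in both libraries), namely Cad, Dck, Paics, Ppat, Psph and Tyms, of which Paics and Ppat are the adjacent pair. A further 3 lie on the X chromosome, Prps1, Prps2 and Ctps2 (10.3%, against 3.75% of those symbols). In the RefSeq promoter table (250 bases before to 50 after each start, first entry per gene), 27 members were matched. A CCAAT box stood in 14 of the 27 windows (51.9%), against 37.9% of all 27025 promoters and 39.2% of the 8484 promoters of symbols at 1 FPKM or more in both libraries. A GC box stood in 20 (74.1%), against 35.9% and 67.2%, and the E-box CACGTG in 4 (14.8%), against 7.24% and 10.6%. The TATA box TATAAA stood in 4 (14.8%), against 14.2% and 6.54%. The amino acid response element TGATGNAA stood in 1, that of Prps1 (3.70%), against 4.06% and 2.11%. The E2F-type pattern TTTNGCGC stood in none, against 1.38% and 2.69%. Other forms of E2F sites were not sought, so these windows cannot be said to lack them. Each motif was sought on both strands, and matches of different motifs may overlap. The median GC content of the members' windows was 60.7%, against 52.7% for all promoters and 61.7% for those of detected symbols. The share of GC box windows and the GC content lay nearer to those of detected genes than of all promoters. Shares of CCAAT box and GC box windows were above both backgrounds, and that of the GC box was near the share of detected genes (74.1% against 67.2%). These differences were not tested. Counts of 4 windows or fewer are too small to place the shares of the E-box, TATA box, response element and E2F-type pattern. A match is no evidence that a factor was bound.

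Sequence shared with other genes limits some levels. Of the 29 members, 15 had a stretch of 75 bases or more at 98% identity or more in a transcript of another gene, and for 7 of them such a match was on the same strand. The share over all genes was not computed. For 9 members, opposite-strand overlaps included, the matching gene stood at 10% or more of the member's level. On the same strand these include Btbd9, which shares 76 bases with Adsl and had 11.2 FPKM in replicate 1 and 23.4 FPKM in replicate 2, and Atp2b1, which shares 95 bases with Tyms and had 14.9 and 13.7 FPKM. The pseudogene match of Phgdh, Gm7901, covers 1597 bases at 98.7% identity, and that gene was not analysed here. Gm6091, a pseudogene with 165 bases at 99.4% identity to Tk1, was listed at 0 in replicate 1 and 3.70 FPKM in replicate 2. These genes were chosen for their match and not by the rule for named genes. In GENCODE M21 the transcripts of Psph and Cct6a share 452 bases on opposite strands, whereas the mm9 rows leave a gap between them. On the opposite strand, 5 members overlap a gene at 1 FPKM or more in both libraries: Paics and Ppat each other, Tk1 with Afmid, Shmt1 with Smcr8 (4.94 FPKM in replicate 1 and 4.62 FPKM in replicate 2, over 184 bases) and Shmt2 with Ndufa4l2 (4.50 and 3.59 FPKM, over 14 bases). These partners were lower than the member they touch, except that Ppat touches the higher Paics. Adsl holds a pseudogene on its own strand, Gm6612, listed at 1.14 and 1.16 FPKM.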

How the data were processed

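RNA was sequenced from 2 libraries of embryonic day 12.5 mouse heart. Total RNA came from a Trizol extraction, and the library kit was Illumina TruSeq RNA v2, per the labels' protocols. The authors deposited 1 table of FPKM per library with 37620 gene rows. The tools named are Cuffnorm, Cufflinks and GSNAP and the builds mm9 and hg19, per the submitters' processing notes. Their versions, the annotation and the treatment of reads with several matches: not given in the sources used here. Coordinates were read as mm9, since genes on chromosome 1 reach 197054592 and in GENCODE M21 (GRCm38) 195323493.

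Rows of a symbol were summed. Log2 values used a pseudocount of 1 FPKM, which understates differences of low genes. FPKM are not counts, so no count model was fitted, and the depth is an estimate made after the data were examined. No test between conditions was possible. The members, lists and pairs were chosen with earlier results of these data known. Genes are named if they are members, paired with one, among the 4 highest or the 3 lowest under 1 FPKM of a list, overlapping a member, or starting within 1 kb of it on the other strand. A further pathway gene is not reported here. Alternatives changed the pseudocount, detection limit, filter, scaling and summing of rows, or left out a library. Copies were sought with BLAST 2.17.0. The depth estimate, the depth ratio and the 2-fold rule were tested on simulated data. The pair rule and the promoter, copy and neighbour steps were not. All steps used Python 3.11.15, NumPy 2.4.6, pandas 2.3.3 and Matplotlib 3.10.9.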

Additional observations from a re-analysis of the deposited data

How the results depend on the processing

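The count of 29 members at 1 FPKM or more was the same at a limit of 5 FPKM, after rescaling, with the highest row per symbol and in each library alone, and 0 members differed 2-fold under each alternative tried. The median level of the members, 4.45 on the log2(FPKM + 1) scale, was 4.39 with a pseudocount of 0.1 FPKM and 4.47 with replicate 2 rescaled to replicate 1. In single libraries it was 4.42 without replicate 1 and 4.44 without replicate 2. The number of pairs past the limit was 17 as reported, 15 with the smaller pseudocount, 15 in replicate 2 alone (without replicate 1) and 17 in replicate 1 alone, and no pair ratio changed sign under any of 7 alternatives. The pairs lost without replicate 1 were Umps over Dhodh (0.29) and Cad over Umps (-0.32). With the smaller pseudocount 10 pair ratios moved by their SD or more and 7 by less. Tk1 over Tk2, for example, went from 2.74 to 2.96. Of the member levels 17 moved by their SD or more and 12 by less. The SD of a ratio or level thus does not cover the choice of pseudocount. No paired analysis was possible because the libraries form a single group. Depth gives each member an estimated 366 or more fragments per kilobase in each library, and with 2 libraries the spread of each gene is itself poorly known.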
